A study of Mus musculus with 10 samples.

Results

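MHC2_high_1 is 1 of 8 fine states into which the authors' annotation divides the macrophages of the mouse hippocampus. Its members were the cells of the class Macrophage with the fine state MHC2_high_1, a total of 355 cells of 2899 macrophages (12.2%) and of 68914 annotated cells (0.515%). The mice were male C57BL/6 wild types aged 11 weeks, and hippocampal cells were collected on day 3 after each hippocampus had been injected. Of the libraries, 3 came from mice given full-length neurofilament light chain (FL-NfL) and 3 from mice given the coiled-coil fragment of that protein (CC-NfL), both at 1 mg/ml, and 4 from mice given vehicle. Neurofilament light chain is a protein of the axonal cytoskeleton, and the study asked what brain cells do when it is supplied from outside. All mice were injected and none of them with a protein other than NfL, so effects of NfL and of an injected protein in general cannot be told apart.

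Major histocompatibility complex (MHC) class II molecules display peptides to helper T cells. In mice, H2-Aa and H2-Ab1 encode the alpha and beta chains of such a molecule, and Cd74 encodes the invariant chain that guides its assembly and peptide loading. In the mouse brain, class II molecules are known from part of the macrophages at the brain borders (perivascular space, meninges and choroid plexus), from dendritic cells and from macrophages derived from blood monocytes, while resting microglia show little. The annotation also holds MHC2_high_2 and MHC2_low macrophages, 3 activated states, a proliferating state and a state named granulocytes. The deposited table gives names and map positions but no gene values, so the 3 marker genes were not checked here and the state is called by its deposited name.

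The 355 cells were spread over all 10 libraries, 137 of them in FL-NfL, 72 in CC-NfL and 146 in vehicle libraries. FL-NfL libraries 1 to 3 held 52, 50 and 35, CC-NfL libraries 14, 27 and 31, and vehicle libraries 1 to 4 held 27, 6, 76 and 37. Vehicle library 2 thus held the fewest, and each result below is also given without it where its call changed. Libraries numbered 1 and 2 form batch b1 of the labels (176 members) and those numbered 3 and 4 form batch b2 (179 members). Barcodes without annotation made up 42.0% to 71.3% of a library in b1 and 17.3% to 20.7% in b2. No barcode occurred in more than 1 member. The barcodes of 14 members were also listed in another library, 7 of them annotated there and 0 as a macrophage.

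On the map that the authors made of macrophages alone, nearly all MHC2_high_1 cells lay in 1 patch that bordered on MHC2_high_2. The map and the states come from the same genes, so positions of states are a description without a test, and map distances have no unit. The centre of MHC2_high_1 lay 11.0 from that of MHC2_high_2, 13.6 from that of the granulocyte state, 18.8 from that of MHC2_low, 21.8 from that of the proliferating state and 23.0 to 43.8 from those of the 3 activated states, while its own cells lay at a median of 3.90 from their centre. Of the 15 nearest macrophages of an MHC2_high_1 cell, 93.7% were MHC2_high_1 on average, 4.02% MHC2_high_2 and 1.92% MHC2_low. In 288 of 355 cells all 15 neighbours were MHC2_high_1, in 54 at least 1 was MHC2_high_2, and in 14 fewer than 50% were MHC2_high_1. These 14 cells came from 6 libraries of all 3 groups. On the map of all annotated cells, 347 members had macrophages as all of their 15 nearest cells, 2 had a microglial cell and 6 a cell of the class other immune cells among them.

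**Figure D1:**
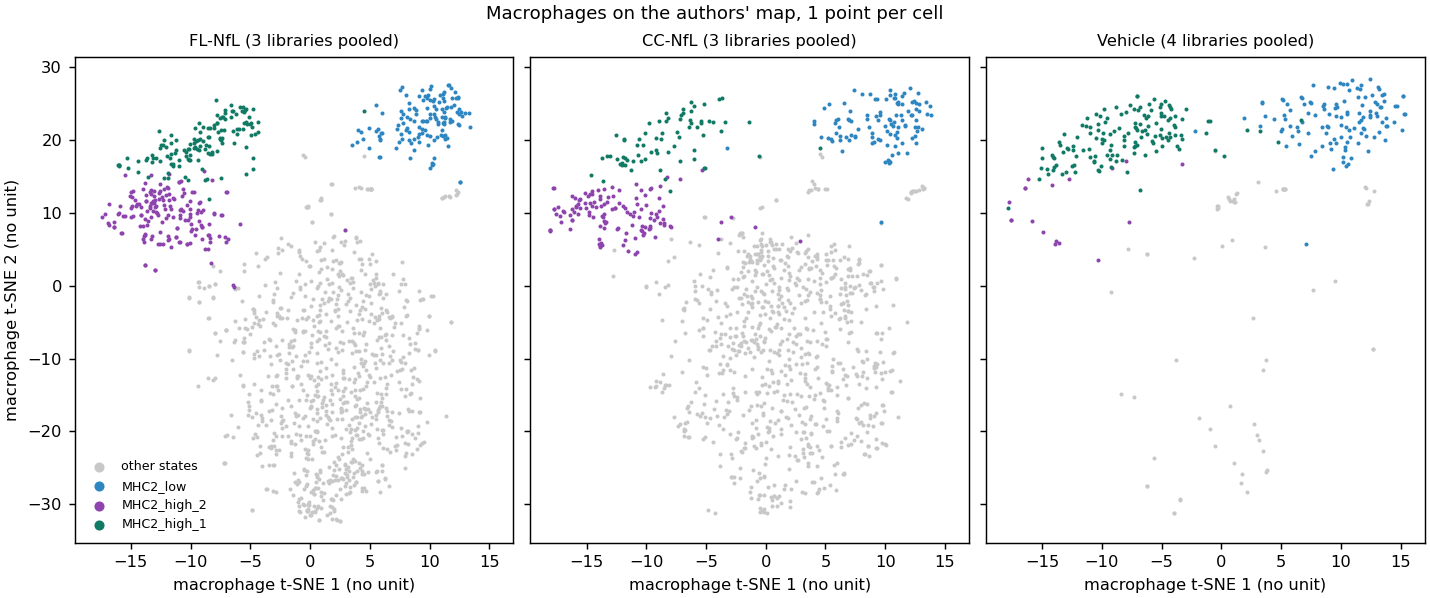
Macrophages on the authors' macrophage t-SNE map (both axes without unit), 1 point per cell, with the libraries of FL-NfL, CC-NfL and vehicle pooled in a panel each. MHC2_high_1 (green) lies at the upper left in all 3 panels, above MHC2_high_2 (purple) and apart from MHC2_low (blue), while the other states (grey) fill the lower map in the NfL panels.

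The place of MHC2_high_1 cells on this map was described for each library by the percentage of their 15 nearest macrophages that were in an activated state. It was 0% in all FL-NfL libraries, 0%, 0% and 0.645% in CC-NfL libraries and 0% in all vehicle libraries, and 354 of 355 cells had no activated neighbour. A measure at 0 in all libraries but 1 leaves nothing to test between groups. The mean distance of members to the centre of MHC2_high_2 was 10.4, 11.3 and 10.4 in FL-NfL, 11.7, 11.3 and 11.0 in CC-NfL and 12.8, 7.97, 12.0 and 11.9 in vehicle libraries. Vehicle libraries 1, 3 and 4 thus lay farther from that centre than every NfL library. The ranges overlapped only through vehicle library 2, whose 6 cells lay nearest to MHC2_high_2.

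Within macrophages, MHC2_high_1 took a smaller share after NfL than in 3 of the 4 vehicle libraries. It made up 12.9%, 28.9% and 4.39% of macrophages in FL-NfL libraries 1 to 3. In CC-NfL libraries it made up 16.7%, 10.2% and 3.77%. In vehicle libraries it made up 43.5%, 11.5%, 50.7% and 40.2%, so that vehicle library 2 lay inside the NfL range and the other 3 above it. The macrophages behind these shares numbered 173 to 797 per FL-NfL, 84 to 822 per CC-NfL and 52 to 150 per vehicle library. For vehicle library 2 the exact 95% interval of 6 cells among 52 ran from 4.35% to 23.4%, and for vehicle library 4, with 40.2%, from 30.1% to 51.0%. Such intervals cover counting error only.

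All 10 libraries entered 1 limma fit of the log2 odds of each state on group and batch. It held the 6 macrophage states that averaged 10 or more cells in a library, and p-values carry a Benjamini-Hochberg adjustment over these 6. After FL-NfL, MHC2_high_1 averaged 15.4% ± 12.4 (SD, n = 3), against 36.5% ± 17.2 (SD, n = 4) in vehicle libraries, and did not pass (log2 odds ratio -2.00, SE 0.96, 95% interval -4.20 to 0.20, limma adjusted p = 0.0700). After CC-NfL it averaged 10.2% ± 6.45 (SD, n = 3) and fell to 0.280 times the vehicle mean (log2 odds ratio -2.53, SE 0.96, limma adjusted p = 0.0352). For both proteins together it averaged 12.8% ± 9.31 (SD, n = 6) and fell (-2.26, SE 0.81, limma adjusted p = 0.0233). Limma called 5 of 6 states after FL-NfL (83.3%), 6 of 6 after CC-NfL (100%) and 6 of 6 for both (100%), so a called state is the rule in these contrasts and not particular to MHC2_high_1. The contrasts with vehicle share the same 4 vehicle libraries, and shares of macrophages sum to a fixed total, so the states are not independent of each other.

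The calls changed when single libraries were left out. Without vehicle library 2 MHC2_high_1 fell after either protein, at -2.99 (limma adjusted p = 0.000565) after FL-NfL, -3.52 (0.000211) after CC-NfL and -3.26 (0.000129) for both. The FL-NfL contrast also passed without FL-NfL library 2 (-2.65, limma adjusted p = 0.0490), which had the largest share among NfL libraries. The CC-NfL call ended without FL-NfL library 1 (adjusted p = 0.0532), CC-NfL library 2 (0.0759), CC-NfL library 3 (0.165) or vehicle library 1 (0.0797), 3 (0.0641) or 4 (0.0753), with estimates of -2.53 to -1.84 in these fits. The call for both proteins ended without FL-NfL library 3 (0.0821), CC-NfL library 3 (0.0774) or vehicle library 1 (0.0757), 3 (0.0597) or 4 (0.0584), with estimates of -2.16 to -1.74. The estimates thus stayed negative in every fit without 1 library.

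The estimates within macrophages stood further from 0 in batch b2 than in b1, a difference that did not pass after adjustment. In b2 MHC2_high_1 made up 4.39% of macrophages in the single FL-NfL library and 3.77% in the single CC-NfL library, against 45.4% on average in vehicle libraries. In b1 the averages were 20.9% after FL-NfL, 13.4% after CC-NfL and 27.5% in vehicle libraries, each from 2 libraries. The log2 odds ratio for both proteins was -4.27 in b2 and -0.75 in b1, and these differed by -3.52 (SE 1.16, 95% interval -6.24 to -0.80), with a limma p of 0.0178 before and 0.107 after adjustment over 6 states. With vehicle library 1 left out of this test the adjusted p was 0.000697, at a difference of -4.76, and without vehicle library 2 it was 0.158, at -2.29. In b1 alone limma did not call MHC2_high_1 for FL-NfL (adjusted p = 0.706), CC-NfL (0.336) or both (0.437), and each protein has a single library in b2, so the estimate for b2 rests on 1 FL-NfL, 1 CC-NfL and 2 vehicle libraries. Activated states took 70.5% of macrophages in the FL-NfL and 79.8% in the CC-NfL library of b2, against 7.61% and 10.0% in vehicle libraries of b2. In b1 they took 62.8% and 39.9% in FL-NfL and 52.4% and 47.0% in CC-NfL libraries, against 8.06% and 23.1% in vehicle libraries. Their part in the batch difference was not tested.

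**Figure D2:**
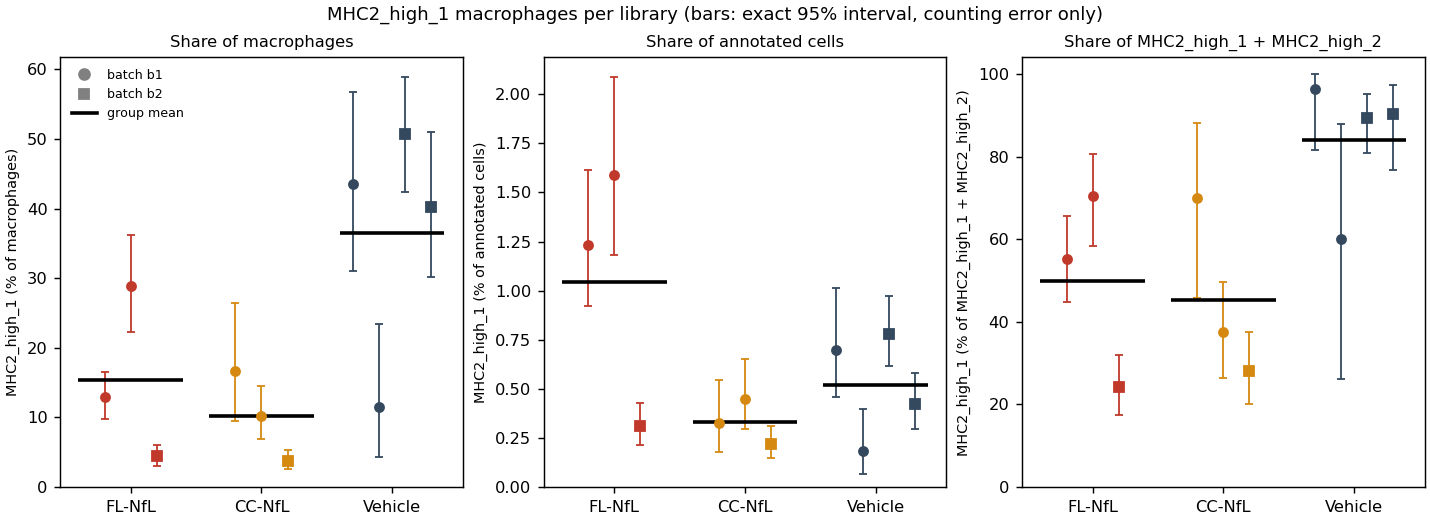
MHC2_high_1 as a percentage of macrophages (left), of annotated cells (middle) and of MHC2_high_1 and MHC2_high_2 together (right), 1 point per library for FL-NfL, CC-NfL and vehicle, with exact 95% intervals for counting error and group means as lines. Within macrophages the NfL libraries lie at 3.77% to 28.9% and 3 of 4 vehicle libraries at 40.2% to 50.7%, while as a share of annotated cells the groups overlap.

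Among all annotated cells, no difference in MHC2_high_1 between groups was detectable. It made up 1.23%, 1.59% and 0.309% of annotated cells in FL-NfL libraries 1 to 3. In CC-NfL libraries the shares were 0.324%, 0.448% and 0.219%. In vehicle libraries they were 0.697%, 0.182%, 0.779% and 0.420%. FL-NfL libraries 1 and 2 lay above every vehicle library and FL-NfL library 3 among them, and all 3 CC-NfL libraries lay among the vehicle libraries. These shares rest on 3150 to 11329 annotated cells per FL-NfL, 4324 to 14141 per CC-NfL and 3290 to 9761 per vehicle library.

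The fit of annotated cells held 25 items, namely microglial and macrophage states and the remaining classes, under the same minimum of 10 cells on average. MHC2_high_1 averaged 1.04% ± 0.660 (SD, n = 3) after FL-NfL and 0.520% ± 0.272 (SD, n = 4) after vehicle, and the estimate on the log2 odds scale was 0.79 (SE 0.68, 95% interval -0.77 to 2.35, limma adjusted p = 0.638). In CC-NfL libraries it averaged 0.330% ± 0.115 (SD, n = 3), with an estimate of -0.62 (95% interval -2.18 to 0.94, limma adjusted p = 0.606). For both proteins it was 0.08 (95% interval -1.24 to 1.41, limma adjusted p = 0.890). Limma called 5 of 25 items after FL-NfL (20.0%), 4 of 25 after CC-NfL (16.0%) and 5 of 25 for both (20.0%). Those called were Activated_1, Activated_2, Activated_3 and MHC2_high_2 macrophages in each of these contrasts, and other immune cells after FL-NfL and for both. Without vehicle library 2 the limma estimates were 0.11 after FL-NfL (adjusted p = 0.962), -1.30 after CC-NfL (adjusted p = 0.104) and, with the sign turned, -0.60 over both proteins (adjusted p = 0.385).

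Total macrophages, by contrast, made up 5.49% to 9.55% of annotated cells in FL-NfL, 1.94% to 5.81% in CC-NfL and 1.05% to 1.60% in vehicle libraries. Set against microglia, MHC2_high_1 cells numbered 38.0, 41.5 and 12.4 per 1000 microglia in FL-NfL libraries. They numbered 9.83, 12.2 and 7.49 per 1000 in CC-NfL and 28.8, 4.87, 23.0 and 12.4 per 1000 in vehicle libraries. On this scale too the groups overlapped, and limma gave log2 ratios of 0.83 after FL-NfL (adjusted p = 0.685) and -0.63 after CC-NfL (adjusted p = 0.719). As a share of annotated cells the batches differed in sign for both proteins together, at -1.13 in b2 and 1.00 in b1, a difference of -2.13 (SE 0.98, limma adjusted p = 0.655).

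FL-NfL and CC-NfL were set against each other to ask whether the whole protein and its coiled-coil part differ. MHC2_high_1 took 15.4% of macrophages in FL-NfL libraries, against 10.2% in CC-NfL libraries, and the estimate of 0.53 had a wide interval (SE 1.02, 95% interval -1.80 to 2.86, limma adjusted p = 0.775). Of annotated cells it took 1.04% in FL-NfL and 0.330% in CC-NfL libraries (estimate 1.41, SE 0.72, 95% interval -0.24 to 3.06, limma adjusted p = 0.426). In batch b1 both FL-NfL libraries exceeded both CC-NfL libraries on this scale, and in b2 the single libraries stood at 0.309% and 0.219%. Within macrophages limma called 0 of 6 states (0%) and 0 before adjustment, while a quasi-binomial model called 1. Over annotated cells limma called 0 of 25 items (0%) and 1 before adjustment, and the quasi-binomial model called 0.

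The other MHC2 states were set beside MHC2_high_1 on the same scale. Per 10000 annotated cells, MHC2_high_2 numbered 99.5, 66.7 and 97.1 in FL-NfL, 13.9, 74.7 and 55.9 in CC-NfL and 2.58, 12.2, 9.22 and 4.55 in vehicle libraries, so that all 6 NfL libraries lay above all vehicle libraries. It rose after FL-NfL (log2 odds ratio 3.67, SE 0.67, limma adjusted p = 0.00460) and CC-NfL (2.53, SE 0.67, limma adjusted p = 0.0306). MHC2_high_1 numbered 123, 159 and 30.9 per 10000 in FL-NfL, 32.4, 44.8 and 21.9 in CC-NfL and 69.7, 18.2, 77.9 and 42.0 in vehicle libraries. MHC2_low numbered 92.4, 88.9 and 61.8 in FL-NfL, 41.6, 78.0 and 32.5 in CC-NfL and 62.0, 79.0, 47.1 and 31.8 in vehicle libraries, and did not pass (0.48 after FL-NfL and -0.27 after CC-NfL, limma adjusted p of 0.606 and 0.618). MHC2_high_1 and MHC2_low thus overlapped between NfL and vehicle libraries and MHC2_high_2 did not, though its gap was narrow, at 6 cells in CC-NfL library 1 and 4 cells in vehicle library 2. Within macrophages, MHC2_low fell after FL-NfL (-2.41, SE 0.42, limma adjusted p = 0.00123) and after CC-NfL (-2.14, SE 0.42, limma adjusted p = 0.00272), with estimates near those of MHC2_high_1 and smaller errors. MHC2_high_2 instead rose within macrophages after FL-NfL (1.42, SE 0.54, limma adjusted p = 0.0355) and after CC-NfL (1.24, SE 0.54, limma adjusted p = 0.050, just under the threshold of 0.05).

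**Figure D3:**
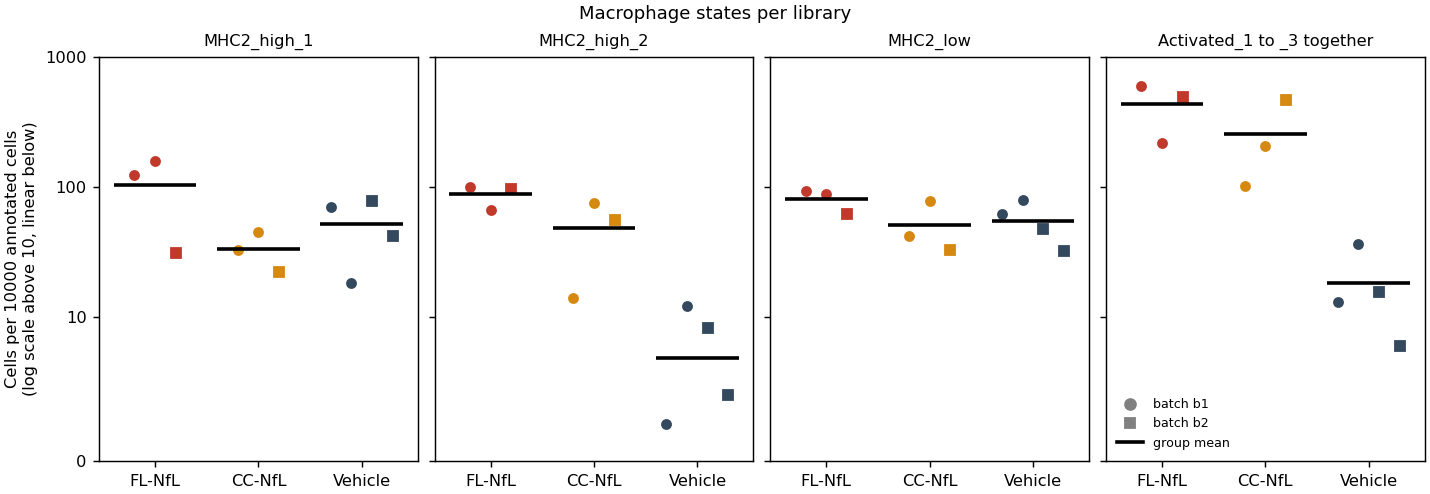
Macrophage states as cells per 10000 annotated cells (log scale above 10, linear below), 1 point per library for FL-NfL, CC-NfL and vehicle, with group means as lines. MHC2_high_1 and MHC2_low overlap between groups, whereas MHC2_high_2 and the activated states together lie above all vehicle libraries in all 6 NfL libraries.

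The balance between the MHC2_high states was therefore described, a comparison chosen after these values were seen. MHC2_high_1 made up 55.3%, 70.4% and 24.1% of MHC2_high_1 and MHC2_high_2 cells together in FL-NfL libraries. It made up 70.0%, 37.5% and 28.2% in CC-NfL libraries, against 96.4%, 60.0%, 89.4% and 90.2% in vehicle libraries. All NfL libraries lay below 3 of the 4 vehicle libraries, and vehicle library 2 at 60.0% rested on 10 cells. The mean was 47.6% ± 20.6 (SD, n = 6) after both proteins and 84.0% ± 16.3 (SD, n = 4) after vehicle. This share also moves with the number of MHC2_high_2 cells, which had prompted it, so no test of it is given.

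Against MHC2_low alone, by a comparison chosen in the same way, MHC2_high_1 made up 57.1%, 64.1% and 33.3% of both states together in FL-NfL, 43.8%, 36.5% and 40.3% in CC-NfL and 52.9%, 18.8%, 62.3% and 56.9% in vehicle libraries. The groups overlapped, and the mean over both proteins differed from that of vehicle libraries by -1.88 percentage points. Among all macrophages outside the activated states, MHC2_high_1 made up 33.0% ± 16.6 (SD, n = 3) after FL-NfL, 24.4% ± 9.15 (SD, n = 3) after CC-NfL and 40.7% ± 18.0 (SD, n = 4) after vehicle. No contrast of this share with vehicle passed (two-sided exact permutation p of 0.600 for FL-NfL, 0.20 for CC-NfL and 0.243 for both proteins, adjusted p of 0.486 to 0.600). The smallest p that the splits allow before adjustment is 0.0286 for 1 protein against vehicle and 0.00476 for both. Between FL-NfL and CC-NfL it is 0.10, so that contrast could not pass. With so few libraries, a missed threshold does not show that the groups are alike.

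**Figure D4:**
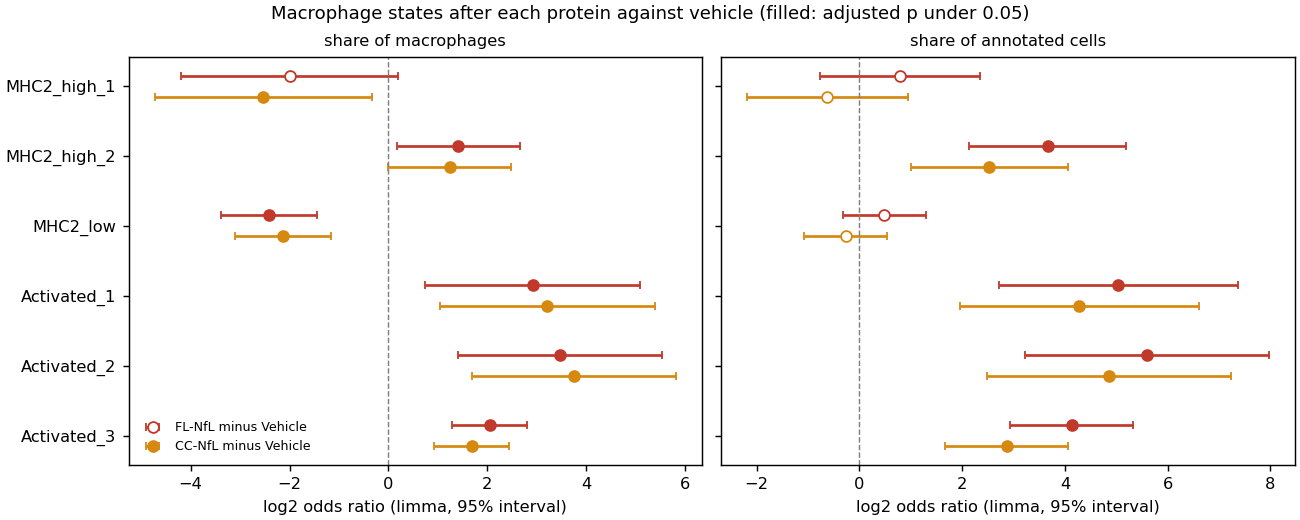
Log2 odds ratios with 95% intervals from limma for the 6 macrophage states after FL-NfL (red) and CC-NfL (orange) against vehicle, as a share of macrophages (left) and of annotated cells (right), filled where the adjusted p is under 0.05. MHC2_high_1 lies at -2.00 and -2.53 on the left and at 0.79 and -0.62 on the right, where its intervals span 0.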

How the data were processed

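The submitters' processing notes name Cell Ranger 6.0.1 and the genome build GRCm38. Per the labels' protocols, cells were dissociated with actinomycin D, stained and sorted as live cells before 3′ library preparation. The authors deposited 1 table of 108266 barcodes, of which 68914 carry a condition, batch, class and map positions. The map positions are scores without a unit, per the file headers. How the authors filtered, clustered and named cells, removed doublets or drew the maps is not given in the sources used here. Condition and batch in the table matched the labels for all 68914 annotated cells.

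Cells were counted per library, which was the replicate, and 13 macrophages without a state were kept in denominators. Log2((cells + 0.5) / (other cells + 0.5)) was modelled on group and batch with limma 3.58.1 in R 4.3.3, tested two-sided, and adjusted by Benjamini-Hochberg with a threshold of 0.05. Percentages were compared by exact two-sided permutation of libraries, adjusted over 4 contrasts. Intervals of shares are exact (Clopper-Pearson, 95%). Alternatives were a quasi-binomial model, other scales, denominators, minimum cell numbers and neighbour numbers, no batch term, a replicate block, single batches and leaving out each library. The fit of annotated cells was tried on simulated counts with differences planted in FL-NfL and no batch effect. The fit within macrophages was not simulated, so its calls were not examined in this way. The series' design text counts injected mice per treatment in the same numbers as libraries, and each library was taken as 1 mouse. The members, tests and comparisons were chosen with earlier results of these data known. States named in the text are all macrophage states and any item of the fit of annotated cells that passed. Deviations of same-numbered FL-NfL and CC-NfL libraries from their group means correlated at 0.22, 0.51 and 0.52 over 25 items. Other pairs of libraries from the same batch and different groups correlated at -0.33 to 0.31. The value of 0.22 lies in that range, but above the pairs in it that join FL-NfL with CC-NfL, at -0.29 and -0.063. The pair at 0.52 holds the only NfL libraries of b2. Whether the numbers pair libraries between the 2 proteins cannot be told from so few pairs, and the labels do not say. The main fits used batch, with the replicate block as an alternative.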

Additional observations from a re-analysis of the deposited data

Results flagged for a closer look

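Among vehicle libraries, 14 measures were checked for 1 library far from the other 3, where chance would mark about 1 in 20. Vehicle library 4 had the lowest share of macrophages, 1.05% of annotated cells, against 1.54% to 1.60% in the other vehicle libraries. In vehicle library 2 the activated states took the highest share of macrophages, 23.1%, against 7.61% to 10.0% in the others. Vehicle library 2 was also the one with 6 MHC2_high_1 cells.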

How the results depend on the processing

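Estimates are log2 odds ratios against vehicle unless stated. Those with centred log ratios are log2 differences relative to the average item of the fit, which is a different measure. Those with both MHC2_high states joined are for both states counted together, also a different measure, as MHC2_high_2 rose within macrophages. For the MHC2_high_1 share of macrophages, the FL-NfL estimate passed with the quasi-binomial model (-2.83) and centred log ratios (-2.49). In batch b2 only, a setting chosen after seeing the data, it was -4.16 from 1 FL-NfL and 2 vehicle libraries, too few to support a call. The CC-NfL estimate missed the threshold with states of at least 1 cell on average (-2.53, adjusted p = 0.0504), batch b1 only (-1.09), without the 3 libraries numbered 1 (-2.82) and with both MHC2_high states joined (-1.38). That for both proteins missed it in b1 only (-0.75), without those 3 libraries (-2.31) and joined (-1.16). With the replicate block in place of batch the limma estimates were -1.76 (adjusted p = 0.166) for FL-NfL, -2.29 (0.0862) for CC-NfL and -2.03 (0.0811) for both. Vehicle library 4 shares its number with no other library and so drops out of these contrasts, which thereby have the estimates of the fit without it. Between FL-NfL and vehicle, same-numbered libraries correlated at -0.32 to 0.17 and other same-batch pairs at -0.11 to 0.31. The numbers were not taken to pair these groups. Between CC-NfL and vehicle, same-numbered libraries correlated at 0.090 to 0.21, above other same-batch pairs at -0.33 to -0.023. Whether the numbers pair CC-NfL with vehicle libraries cannot be told from so few pairs. The CC-NfL call did not hold with the block. The 4 of 10 libraries that correlated best with their own number were FL-NfL and CC-NfL libraries 2 and 3, each with the other protein. The block changed no call between FL-NfL and CC-NfL, where the estimate within macrophages was 0.53 (limma adjusted p = 0.781). The number of macrophage states called was 3 with centred log ratios, 0 in b1 and 2 without the libraries numbered 1 for FL-NfL. In b1 and without those libraries it was 0 and 2 for CC-NfL, and 3 and 2 for both proteins. No count is given for b2, where each protein has 1 library. FL-NfL against CC-NfL had 1 state called by the quasi-binomial model. As a share of annotated cells, the sign turned for FL-NfL with centred log ratios (-0.010) and in b2 (-0.89), for CC-NfL in b1 (0.062), and for both with the quasi-binomial model (-0.41), centred log ratios (-0.62) and in b2 (-1.13). In b1 only, the FL-NfL estimate on this scale was 1.93 (limma adjusted p = 0.253). With 30 map neighbours the activated share differed by -0.0658 percentage points for FL-NfL and -0.0120 for both. The cause of these changes was not tested.

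Leaving out 1 library at a time gave ranges of the log2 odds ratio for the MHC2_high_1 share of macrophages. These were -2.99 to -1.07 for FL-NfL, -3.52 to -1.84 for CC-NfL, -3.26 to -1.74 for both and -0.17 to 1.34 for FL-NfL against CC-NfL. The macrophage states called numbered 2 to 6, 3 to 6, 4 to 6 and 0 in the same order. For annotated cells the ranges were 0.11 to 1.64, -1.30 to -0.27, -0.60 to 0.56 and 1.02 to 2.16. The batch difference ranged over -4.76 to -2.29 within macrophages and -3.06 to -1.20 among annotated cells. In percentage points, the difference in the MHC2_high_1 share of non-activated macrophages ranged over -16.2 to 1.32 for FL-NfL, -24.8 to -10.9 for CC-NfL, -20.5 to -6.57 for both and 1.07 to 17.5 for FL-NfL against CC-NfL. The difference in the MHC2_high_1 share of both MHC2_high states together ranged over -44.3 to -21.2, -51.2 to -30.3, -44.4 to -31.7 and -5.50 to 17.6. That in its share of MHC2_high_1 and MHC2_low together ranged over -5.86 to 12.9, -17.2 to -2.71, -11.5 to 2.97 and 5.07 to 20.5. Activated map neighbours ranged over 0, 0 to 0.323, 0 to 0.129 and -0.323 to 0. With a lone library left in b2 or in a group, that library was assumed to vary like the others. The counting interval of vehicle library 2 (4.35% to 23.4% of macrophages) lay below those of the other vehicle libraries, whose lowest bound was 30.1%, so the spread between these libraries was larger than counting error.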
